A study of Mus musculus with 14 samples.

Results

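The astrocytes of the mouse retina were the 232 nuclei that the authors labelled astrocytes among 77676 labelled retina nuclei, or 0.299% of them. They were chosen by that label alone, which came from clusters of the authors' integrated data. Müller glia, the other large glial type of the retina, served for contrast with 3072 nuclei.

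The study asked what loss of TGF-beta signaling in endothelial cells does to the vessels of the retina and brain. Whole retinas were profiled at postnatal day 14 by single-nucleus RNA sequencing with PIPseq, which captures nuclei in droplets and counts unique molecules of RNA (UMIs). There was 1 control library and there were 11 knockout libraries. The series text calls the animals young adults, and the age given here is that of the study's paper. In the knockout group (Cdh5CreER;Tgfbr1CKO/-, here CKO), 1 Tgfbr1 allele was floxed and the other was a germline null, and 4-hydroxytamoxifen was given between postnatal days 3 and 5. The control is labelled WT. The study describes its controls elsewhere as phenotypically wild type, typically with 1 floxed and 1 intact allele, and does not say whether the control of this library received 4-hydroxytamoxifen.

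The model has limits that bear on astrocytes. The Cdh5 promoter drives Cre in endothelial cells, so astrocytes were not the target of the deletion, but every CKO cell, astrocytes included, carried the null allele. Counts per gene do not separate deleted from intact Tgfbr1 transcripts. How many mice each retina library pooled is not stated (each brain library pooled 2 brains), and p-values here measure the spread between libraries. Endothelial cells, pericytes and fibroblasts were not among the 11 labelled retinal types.

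Retinal astrocytes enter the eye from the optic nerve head, where their precursors express the transcription factor Pax2, and spread over the inner surface of the retina. They form a network of fibers that growing vessels follow, and they secrete the endothelial growth factor Vegfa. Müller glia arise inside the retina from the same progenitors as its neurons, span its whole thickness, and share with astrocytes the uptake of glutamate through Slc1a3.

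Astrocyte nuclei were few in every library. The control held 12 among 11513 nuclei. The CKO libraries held 220 among 66163 nuclei, from 0 in replicate 4, a library of only 104 nuclei, to 61 in replicate 5. Comparisons of expression used the control and the 8 CKO libraries with at least 10 astrocyte nuclei, which were replicates 1, 2 and 5 to 10. Summed over astrocytes, these libraries held from 14859 UMIs in CKO replicate 2 to 268695 in CKO replicate 5, and the control held 31274. The median astrocyte nucleus had 2891.5 UMIs and the median Müller glia nucleus 3354. At the control's depth 3 UMIs correspond to 95.9 CPM (UMIs of a gene in 1e6 UMIs), and a gene with no UMI in its astrocytes was given that floor. Intervals and floors cover counting error only.

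The libraries also differed in batch, kit version and Xist, and some CKO libraries shared each of these with the control. The control and CKO replicates 1 to 3 were batch 1 in the authors' annotation, CKO replicates 4 and 5 batch 2, and the rest batch 3. CKO replicates 8 to 11 were made with kit version 5 and all others with kit version 4. Xist, the RNA that coats the inactive X chromosome of females, had 6779 CPM in the control when all nuclei were summed. It was between 5577 and 6823 CPM in CKO replicates 1, 2, 4 and 7, and at most 12.9 CPM in the other CKO libraries. Of 28316 gene symbols, 24277 had UMIs in both batch 1 and batch 3, and these symbols held 98.1% of the astrocytes' UMIs. Tests were limited to them. Among 77666 cell barcodes, 10 occurred in more than 1 library, and 0 of the 232 astrocytes carried such a barcode.

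The label was checked against the markers Gfap, Aqp4, Pax2 and Slc1a3. Gfap, the intermediate filament of astrocytes, averaged 1207 ± 898 CPM (SD, n = 9 libraries) in astrocytes and 46.0 ± 28.4 CPM in Müller glia. Pax2 averaged 852 ± 407 CPM against 1.1 ± 1.34 CPM. Slc1a3, the glutamate transporter that both glial types use, averaged 2162 ± 529 CPM against 1328 ± 130 CPM. All 3 were higher in astrocytes than in Müller glia in 9 of 9 libraries. The water channel Aqp4 went against the label. It had 5.89 ± 8.95 CPM in astrocytes and 108 ± 26.6 CPM in Müller glia, and was higher in astrocytes in 0 of 9 libraries.

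Shares of nuclei gave the same order. Nuclei were compared after thinning each to 1000 UMIs, which left out 40 of the astrocytes, 456 Müller glia and 203 retinal ganglion cells, a neuron type that should lack these genes. Pax2 was seen in 50.5% of 192 astrocytes, in 0.153% of 2616 Müller glia and in 0.336% of 1487 ganglion cells. Before thinning these shares were 75.9%, 0.423% and 1.18%, at median depths of 2891.5, 3354 and 8539.5 UMIs. Aqp4 was seen in 1.04% of thinned astrocytes (3.45% before), 10.8% of Müller glia (30.3% before) and 0.605% of ganglion cells (4.08% before). Few astrocyte nuclei thus held an Aqp4 molecule above the level in ganglion cells. By a separate rule, 208 of the 232 labelled astrocytes (89.7%) had UMIs of at least 2 of the 4 genes Gfap, Pax2, Pdgfra and S100b. Of the 326 retina nuclei that met this rule, 63.8% were labelled astrocytes and 13.8% Müller glia.

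The first comparison asked whether the share of astrocytes among nuclei differed between genotypes. The control had 0.104% astrocytes (exact binomial 95% interval 0.0539% to 0.182%). The CKO libraries had from 0% to 0.667%, with a median of 0.309% and a mean of 0.295% ± 0.171 (SD, n = 11). The share was above the control's in 10 of 11 CKO libraries. Replicate 8 was highest, and replicate 4, where 0 of 104 nuclei allow a share of up to 2.88% (3 nuclei of the total), was the exception. Curation by the authors removed clusters with several nuclei from CKO replicates 4 and 5, and its effect on their shares was not tested. The difference did not pass a two-sided exact permutation test (p = 0.25), which with 1 control library cannot give a p below 0.0833. Within the control's batch, the 3 CKO libraries had 0.161%, 0.246% and 0.424%, all above the control (exact permutation p = 0.5, the smallest possible being 0.25).

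**Figure D1:**
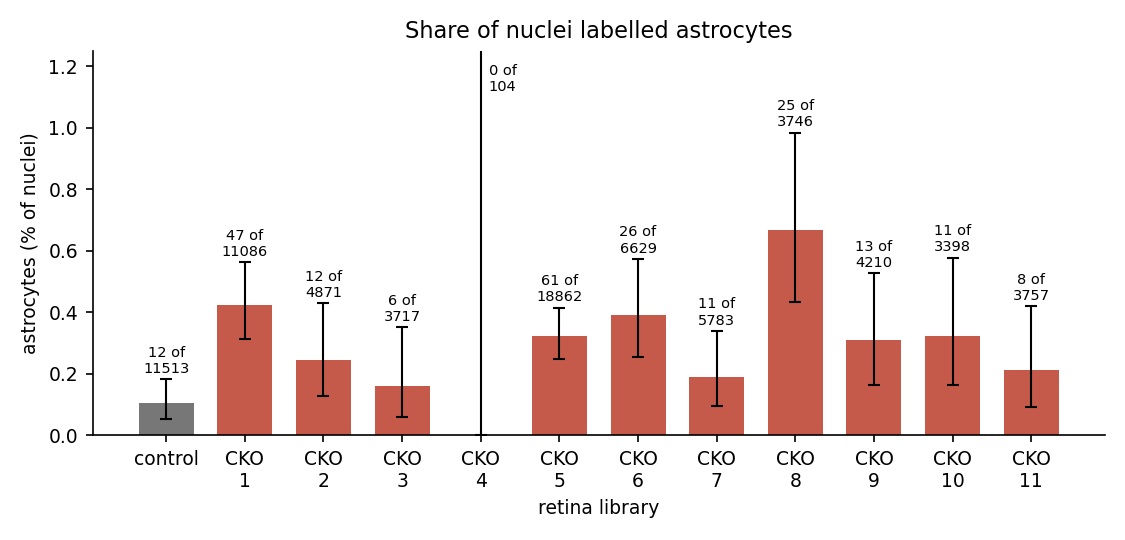
Percentage of nuclei labelled astrocytes in each of the 12 retina libraries, with the control in gray and CKO libraries in red. Bars start at 0, error bars are exact binomial 95% intervals (that of CKO replicate 4 runs beyond the axis), and the labels give the astrocyte nuclei among all nuclei; 10 of 11 CKO libraries lie above the control.

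The same held against Müller glia, whose number does not depend on how many rods were captured. Astrocytes were 2.90% of astrocytes plus Müller glia in the control (exact binomial interval 1.51% to 5.01%) and from 0% to 11.5% in the CKO libraries, with a median of 6.49%. The percentage was above the control's in 10 of 11 libraries, with a mean of 6.45% ± 3.24 (SD), and replicate 4, which had only 2 Müller glia, was again the exception. The exact permutation test gave p = 0.333, again with 0.0833 as the smallest p possible.

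The next question was what sets astrocytes apart from Müller glia. This is a description without a test, because the labels came from clustering on the same genes. Means were taken over the 9 libraries for 7950 genes with at least 20 CPM in 1 of the types and at least 100 UMIs in both together. In astrocytes, 298 genes (3.75%) were at 4 times the Müller glia level or more, and 250 genes (3.14%) were at 1/4 of it or less. Of the 298, 139 were higher in all 9 libraries, and of the 250, 233 were lower in all 9. With the kit version 5 libraries alone, where 6974 genes met the rule, 137 were at a ratio of 4 or more and 259 at 1/4 or less.

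Among the 20 genes with the highest ratios, Pax2 was 777 times the Müller glia level. Hs3st3a1, a heparan sulfate sulfotransferase, averaged 584 ± 294 CPM against 1.6 ± 2.07 CPM, a ratio of 365, and Sema6d, a transmembrane semaphorin, 1562 ± 667 CPM against 5.22 ± 3.24 CPM, a ratio of 299. These genes were close to absent from Müller glia, where both had means of a few CPM. Cnmd (chondromodulin, an inhibitor of vessel growth) had a ratio of 228 and Pax8, a relative of Pax2, a ratio of 175. The chemokine gene Cxcl12 was at 195 ± 130 CPM against 2.27 ± 1.65 CPM, a ratio of 85.8. Pdgfra, the receptor through which platelet-derived growth factor from neurons drives the spread of astrocytes, was at 730 ± 227 CPM against 9.49 ± 6.33 CPM, a ratio of 76.9. All of these were higher in astrocytes in 9 of 9 libraries.

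Others of these 20 genes encode the adhesion molecules Cdh19 (139) and Itga8 (104, higher in 8 of 9 libraries), the collagens Col8a1 (140) and Col1a2 (86.2, higher in 8 of 9), the fatty acid receptor Cd36 (96.0), the potassium channel subunit Kcnq5 (92.5), the synaptic adhesion protein Lrrtm3 (87.0), the transcriptional cofactor Lmo3 (113), the lectin Clec18a (206) and the regulator of G protein signaling Rgs5 (180). Noncoding transcripts were among them too, with ratios of 203 for Gm14061 and 194 for C230072F16Rik. The calcium-binding protein S100b had a ratio of 70.3.

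At the other end, some Müller glia genes were close to absent from astrocytes. Bmp5, a secreted bone morphogenetic protein, averaged 0.693 ± 2.08 CPM in astrocytes and 55 ± 21.5 CPM in Müller glia, 79.3 times as much. Lrrc66 was 106 times and the synaptotagmin Syt15 79.5 times higher in Müller glia, and the proneural factor Neurog2 68.5 times. Each of these had 1 UMI in all astrocytes of the 9 libraries. Pcolce2, an enhancer of collagen processing, was 54.2 times higher, the transcription factor Myb 53.0 times, the cofactor Myocd 40.6 times and the protease Adamts12 36.5 times. All were lower in astrocytes in 9 of 9 libraries.

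**Figure D2:**
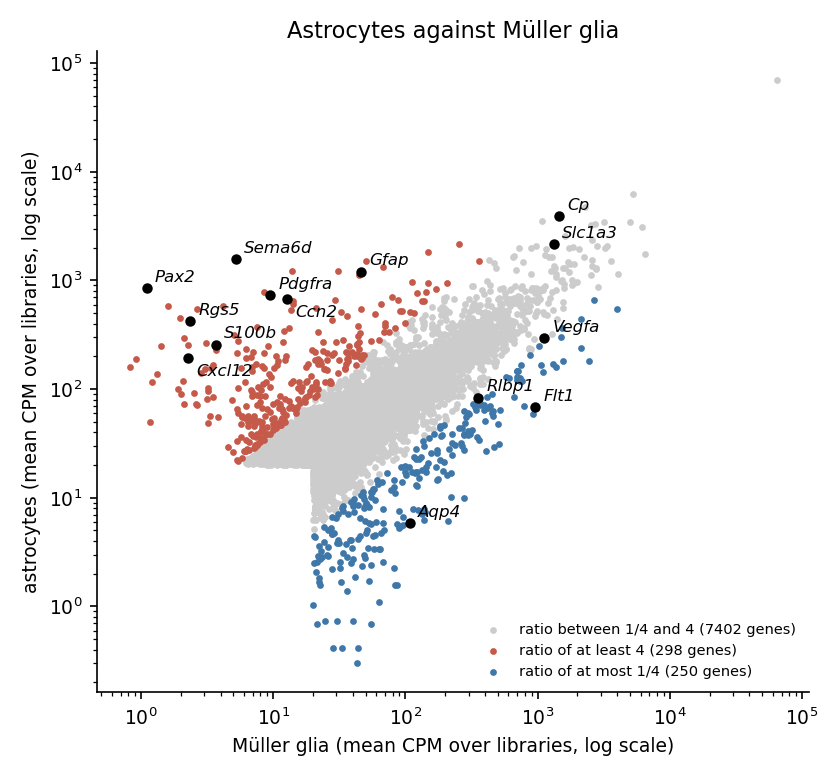
Mean CPM over 9 libraries in astrocytes (vertical, log scale) against Müller glia (horizontal, log scale), each point 1 of 7950 genes and values under 0.3 CPM drawn at 0.3. Red marks the 298 genes at a ratio of at least 4 and blue the 250 at 1/4 or less; Pax2 lies farthest toward astrocytes, and Aqp4 on the side of Müller glia.

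Gene groups differed in how far they separated these glia. Over all 7950 genes the median log2 ratio was 0.10 and 4436 genes were higher in astrocytes. Of 22 measured factors of eye and glial development, 13 were higher in astrocytes and 4 at least 4 times, with a median log2 ratio of 0.71. Besides Pax2, Id4 was at 247 CPM against 9.14 CPM and Zic1 at 129 CPM against 9.69 CPM. Id3, an inhibitor of basic helix-loop-helix factors, was at 5.02 times. Nfia, a driver of glial fate, was at 1927 ± 318 CPM against 1155 ± 150 CPM, whereas Pax6, the regulator of retinal progenitors, was at 0.212 of the Müller glia level.

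Transport genes split. Of 12 measured genes of uptake and homeostasis, 5 were higher in astrocytes, with a median log2 ratio of -0.30. The bicarbonate cotransporter Slc4a4 was at 1317 ± 341 CPM against 67.8 ± 19.6 CPM, a ratio of 19.4. The potassium channel Kcnj10 was at 0.262 and the cystine transporter Slc7a11 at 0.0503 of the Müller glia level. Glul, the enzyme that turns glutamate into glutamine, was at 0.519 of it, and Slc7a10 had no UMI in these astrocytes. Gjb6 had none in any of the 11 types.

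Matrix and vessel genes leaned the other way in part. Of 17 measured matrix genes, 14 were higher in astrocytes, 6 of them at least 4 times, and the median log2 ratio was 1.18. The proteoglycan Bcan had a ratio of 23.2, Tnc (tenascin C) 10.1 and Sparc 4.69, while the laminin chain Lama1 was at 0.121. Of 10 measured signals to vessels, 5 were higher in astrocytes and the median log2 ratio was 0.01. Cxcl12 and the vessel-stabilizing ligand Angpt1 (ratio 13.5) led on the side of astrocytes. Sema3e, a repellent for endothelial cells, was at 0.126, and Vegfa averaged 294 ± 249 CPM against 1116 ± 356 CPM, a ratio of 0.264. This ratio reflects the CKO libraries, 8 of the 9, since in the control Vegfa was higher in astrocytes, at 895 CPM against 599 CPM.

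Growth signals, metabolism and reactive genes completed the contrast. Of 19 measured genes of gliogenic signaling, 9 were higher in astrocytes (median log2 ratio -0.01). The receptor Erbb4 had a ratio of 22.4, while Egfr was at 0.141 and the ligand Pdgfc at 0.0911. Of 11 genes of lipid and energy metabolism, 7 were higher (median 0.75), with a ratio of 4.90 for Aldoc, a glycolytic enzyme, and 0.132 for Aldh1l1, a folate enzyme used as a marker of brain astrocytes. Of 8 reactive genes shared by many injury models, 8 were higher (median 1.66), and of 12 hypoxia genes 1 was higher (median -0.53). In the control alone the reactive contrast turned, with a sum of 1023 CPM in astrocytes and 1229 CPM in Müller glia. The hypoxia contrast kept its direction, with sums of 1439 and 1560 CPM. Of the Müller glia markers, 4 of 16 were higher in astrocytes and 4 were at 1/4 or less, among them Rlbp1, the retinal aldehyde-binding protein, at 0.234.

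Among all 11 labelled retinal types, 2028 of the 7950 genes (25.5%) were highest in astrocytes. At least 4 times the next type were 102 genes, and 42 were at least 10 times it. Pax2 was 390 times the next type, horizontal cells at 2.18 CPM. Pax8 led by 175, Hs3st3a1 by 165, Rgs5 by 138 and Cdh19 by 136. Rgs5 is also a marker of pericytes, which were not among the labelled types, so its lead does not cover them. The next type was Müller glia for 60 of the 102 genes. Cxcl12 led Müller glia 85.8 times, Pdgfra led GABAergic amacrine cells 75.9 times, and Chdh, the choline dehydrogenase, led Müller glia 57.4 times. Ccn2, a secreted matrix protein and a target of TGF-beta and YAP signaling, averaged 679 ± 260 CPM and led by 53.1. Stard13, a GTPase-activating protein, led by 43.3, but its astrocyte level followed the batch. It was at 1471 CPM in the control and at 972, 1750 and 1001 CPM in CKO replicates 1, 2 and 5, and between 0 and 83.9 CPM in the 5 libraries of batch 3.

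The astrocyte nuclei were then clustered among themselves into 4 sub-clusters, again as a description. Sub-cluster 1 held 94 nuclei from 11 libraries, 10 of them from the control. It was led by Pcx (pyruvate carboxylase), Ccbe1 (a secreted factor of lymphatic growth), Ndst3 (a heparan sulfate enzyme), Adamts16 and Lrrtm3, and had Gfap at 1161 CPM and Pax2 at 1244 CPM. Sub-cluster 2 held 77 nuclei from 7 libraries, 40 of them from CKO replicate 5 and 0 from the control. It was led by Fbln2 (fibulin 2), Lcn2 (lipocalin 2), Mt3 (a metallothionein), Fmod (fibromodulin) and Cryab (a small heat shock protein), and had Gfap at 2730 CPM and Cp at 6826 CPM. The rod arrestin Sag was low in these clusters, at 39.1 and 53.2 CPM. Sub-cluster 2 also had 5 of 16 Müller glia markers raised, with a sum of 5282 CPM against 2653 CPM in sub-cluster 1, a pericyte sum of 962 CPM and a fibroblast sum of 719 CPM.

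The remaining 61 nuclei (26.3%) held transcripts of neurons as well. In sub-cluster 3, with 43 nuclei led by Arl6, Kcnv2 (a photoreceptor potassium channel subunit), Gnaz, Wdr31 and Podxl, 8 of 8 rod markers were raised over the other astrocytes and Sag was at 3280 CPM. Sub-cluster 4, with 18 nuclei, was led by the neuronal genes Car10, Cntn5, Lrrtm4, Nrg3 and Asic2. In it 7 of 8 rod, 6 of 6 bipolar and 5 of 6 amacrine markers were raised, and Trpm1, a channel of ON bipolar cells, was at 1006 CPM against 0 CPM in sub-clusters 1 and 2. Depth followed this content, since the median nucleus had 2136, 3344, 6200 and 9383.5 UMIs in sub-clusters 1 to 4. The control nucleus with the most UMIs, 7240 or 23.2% of the control's astrocyte total, was in sub-cluster 4. Whether these 61 nuclei are mixtures was not tested, and counts are given below with and without them.

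**Figure D3:**
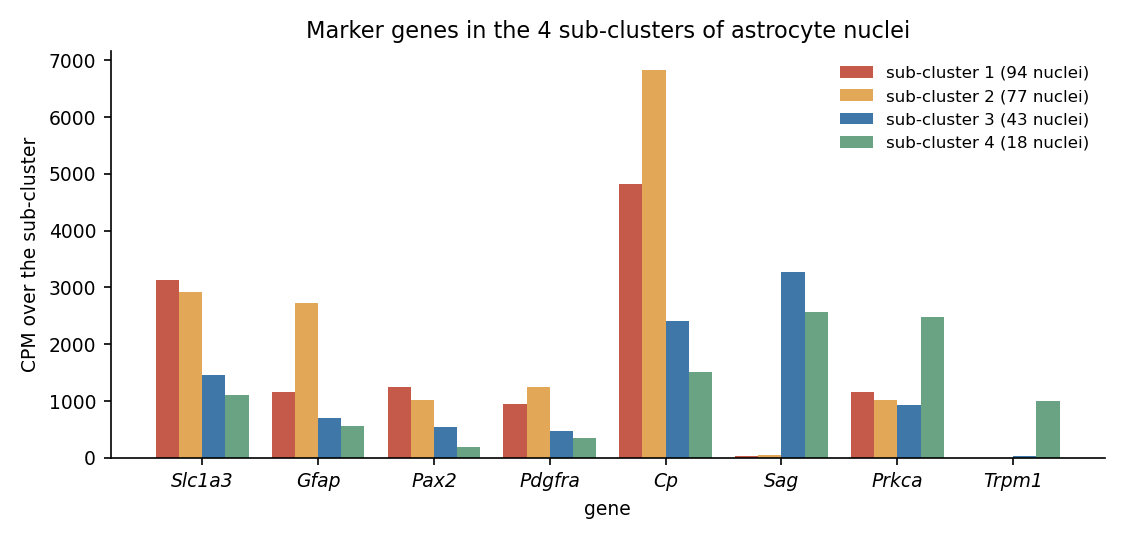
CPM of 8 genes over the pooled nuclei of each of 4 sub-clusters of astrocyte nuclei, with bars starting at 0. The astrocyte genes Slc1a3, Gfap, Pax2, Pdgfra and Cp are present in all 4, the rod gene Sag is raised in sub-clusters 3 and 4, and the bipolar gene Trpm1 is at 1006 CPM in sub-cluster 4.

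The central comparison was CKO against control astrocytes. With edgeR, 0 of 5034 genes (0%) had an adjusted p under 0.05. At an unadjusted p under 0.05 there were 381 (7.57%), 221 higher (4.39%) and 160 lower (3.18%) in CKO astrocytes. DESeq2 called 1 of 5034 genes (0.0199%), which was Cp. The median log2 fold change over all 5034 genes was 0.27, and it was -0.12 with the 928 genes without a control UMI set at their bound. The lone control library was assumed to vary like the CKO libraries. By chance alone it can lie outside the range of all 8 CKO libraries. The share of all genes for which it did so was not counted.

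Gfap was among the 5 higher genes of smallest p. It had 95.9 CPM in control astrocytes, which was 3 UMIs in 2 nuclei (exact Poisson interval 19.8 to 280 CPM), and from 617 to 3028 CPM in the CKO libraries, with a median of 980 CPM. The 8 CKO libraries all lay above the control and did not overlap it, with replicates 2, 5 and 1 highest. Pooled CKO astrocytes had 14.2 times the control level (exact conditional interval 4.85 to 69.0), and edgeR gave a log2 fold change of 4.00 ± 0.96 (SE) with an adjusted p of 0.253. In Müller glia of the same libraries Gfap was at 11.9 CPM in the control and from 22.6 to 97.2 CPM in CKO, also above the control in 8 of 8. The CKO effect on Gfap did not differ between these types past the threshold (edgeR interaction log2 1.72 ± 0.95, adjusted p = 0.635).

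After thinning, 16.7% of 12 control astrocytes (exact binomial interval 2.09% to 48.4%; 16.7% before thinning at a median of 2323 UMIs, 0 left out) and 68.9% of 180 CKO astrocytes (61.6% to 75.6%; 87.3% before at 3009 UMIs, 40 left out) had a Gfap UMI. In ganglion cells this share was 0.202% (2.54% before, at 8539.5 UMIs, 203 left out). Both genotypes were above the ganglion cell share. Gfap passed the edgeR threshold within the control's batch, where CKO replicates 1 and 2 were at 1664 and 3028 CPM (adjusted p = 0.000887, 874 genes tested). Over its alternatives the adjusted p ran from 0.000887 to 0.708.

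Cp, which encodes the copper-carrying ferroxidase ceruloplasmin, was at 895 CPM in the control (interval 595 to 1294 CPM) and from 1841 to 6999 CPM in CKO astrocytes, with a median of 4079 CPM. All 8 CKO libraries were above the control, with replicate 2 highest and replicate 10 lowest. The pooled ratio was 4.57 (3.16 to 6.88), and the log2 fold change 2.43 ± 0.57 with an adjusted p of 0.231 in edgeR and 0.0134 in DESeq2 (alternatives from 0.0134 to 0.577). In Müller glia Cp was at 1036 CPM in the control and from 1043 to 2062 CPM in CKO.

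The other higher genes of smallest p had no UMI in control astrocytes. Camk1d, a calcium-dependent kinase, was at 202 to 767 CPM in CKO astrocytes with a median of 515 CPM, at least 5.37-fold higher than the floor of 3 UMIs in the control library. Anks1b, a synaptic scaffold protein, had a median of 249 CPM, at least 2.60-fold higher, and Kirrel, an adhesion molecule, a median of 260 CPM, at least 2.71-fold higher. All 3 were above 0 in 8 of 8 CKO libraries, with adjusted p-values of 0.253, 0.514 and 0.533. Their levels in other types were high, with Camk1d at 2235 CPM in rods and Anks1b at 2572 CPM in horizontal cells.

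The lower genes of smallest p were of a different kind. Hs3st4, a heparan sulfate sulfotransferase, was at 576 CPM in the control and from 0 to 212 CPM in CKO, with a median of 6.52 CPM. Il1rapl2, a synaptic adhesion receptor, was at 640 CPM and from 0 to 368 CPM, with a median of 0. Both lay below the control in 8 of 8 CKO libraries at an adjusted p of 0.0618, but all 18 and all 20 of their control UMIs came from 1 nucleus. That was the control nucleus with the most UMIs, and without it both directions turned (log2 3.23 with an adjusted p of 0.844, and log2 1.42 with 0.955). Over the alternatives the adjusted p ran from 6.78e-07 to 0.914 for Hs3st4 and from 1.06e-10 to 0.955 for Il1rapl2. In cone bipolar cells these genes were at 740 and 734 CPM, higher than in any other type.

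The other 3 lower genes had control UMIs in 6 or 7 nuclei. Pcsk6, a proprotein convertase, was at 416 CPM in the control and from 0 to 62.6 CPM in CKO with a median of 20.8 CPM. Opcml, an adhesion molecule of the IgLON family, was at 1311 CPM and from 0 to 466 CPM with a median of 200 CPM. Frmd4a, a scaffold of epithelial polarity, was at 1055 CPM, where 21 of 33 UMIs came from 1 nucleus, and from 186 to 474 CPM with a median of 280 CPM. All 8 CKO libraries lay below the control for each. The log2 fold changes were -4.52 ± 1.00 for Pcsk6, -2.78 ± 0.64 for Opcml and -2.15 ± 0.46 for Frmd4a, each with an adjusted p of 0.231. Frmd4a too leaned on the control nucleus of most UMIs, and was at log2 -0.93 without it (adjusted p = 0.574, alternatives from 0.0557 to 0.708).

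Some of the genes that mark astrocytes against Müller glia were lower in CKO without passing the test. Pax2 was at 1855 CPM in the control (58 UMIs in 11 nuclei) and from 438 to 1009 CPM in CKO with a median of 722 CPM, a pooled ratio of 0.380 (0.290 to 0.507). After thinning, 58.3% of control astrocytes (27.7% to 84.8%, and 91.7% before) and 50% of CKO astrocytes (42.5% to 57.5%, and 75% before) had a Pax2 UMI. These intervals are over single nuclei and do not measure the spread between libraries. Kcnq5 was at 2302 CPM and from 349 to 812 CPM, and Lrrtm3 at 3517 CPM and from 409 to 1560 CPM. The control was above all 8 CKO libraries for these genes, by log2 -1.32 ± 0.42, -1.86 ± 0.45 and -1.86 ± 0.53, with adjusted p-values of 0.615, 0.253 and 0.533. Other genes that mark astrocytes went the other way. Gfap was higher in all 8 CKO libraries. Rgs5 and Col1a2 were higher at an unadjusted p under 0.05 in edgeR (adjusted p = 0.615 for both). Still others did not separate. Slc1a3 was at 1982 CPM in the control and from 1404 to 3163 CPM in CKO, above it in 5 of 8, and Pdgfra was at 959 CPM and from 429 to 1193 CPM, below it in 7 of 8. Aqp4 had 0 UMIs in the control and from 0 to 26.6 CPM in CKO, under the floor on both sides.

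The count of called genes depended on the nuclei and libraries used. Without sub-clusters 3 and 4, an alternative chosen after seeing the data, 5 of 1102 genes passed: Cp and Gfap higher, and Kcnq5, Opcml and Kalrn, a guanine nucleotide exchange factor named because it passed there, lower. Within the control's batch 7 of 874 genes passed, and with the 4 CKO libraries of at least 20 astrocyte nuclei 7 of 3949. Without CKO replicate 8 there were 2 and without replicate 9 there was 1, all from the pair Hs3st4 and Il1rapl2. Cst3 (cystatin C, an inhibitor of proteases) was called in 3 alternatives. It had 1 UMI, or 32.0 CPM, in the control and from 0 in CKO replicate 7 to 2527 CPM in replicate 5, with a median of 1219 CPM, higher in 7 of 8. Its pooled ratio was 51.4 with a counting interval of 9.22 to 2033, and its adjusted p was 0.615, from 0.000204 to 0.914 over the alternatives.

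The reactive genes summed to 1023 CPM in control astrocytes and from 2780 to 12114 CPM in CKO astrocytes, with a median of 6391 CPM, above the control in 8 of 8 libraries. In Müller glia it was 1229 CPM in the control and from 1292 to 2587 CPM in CKO. Cp gave the most UMIs, so the sum is not independent of it. Of 9 genes tested, 4 were higher at an unadjusted p under 0.05, 0 lower and 0 called, where 4.39% of all 5034 genes were higher and 3.18% lower at this p. Their median log2 fold change was 6.22, and 0.38 with the 6 genes without a control UMI at their bound. Vim, a filament of immature and reactive glia, had 1 control UMI (32.0 CPM) and from 108 to 815 CPM in CKO, a pooled ratio of 16 (2.86 to 634). Cd44, a receptor for hyaluronan, had 0 in the control and from 39.0 to 336 CPM in CKO, with a median at least 1.4-fold above the floor. Serpina3n, a secreted serpin, was at 0 in the control and at 0 to 264 CPM in CKO with a median of 121 CPM, and was seen in 12.8% of thinned CKO astrocytes (30.9% before) against 0% of ganglion cells (0.355% before).

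Groups sometimes set apart as forms of reactivity were thinly measured. The A1 group was at 128 CPM in the control and from 71.5 to 491 CPM in CKO, above it in 6 of 8, with 3 genes tested, 0 at an unadjusted p under 0.05 and a median log2 of 2.21 (1.12 at the bound). Its complement gene C3 was at 0 in the control and from 0 to 175 CPM in CKO. The A2 group was at 64.0 CPM and from 35.8 to 404 CPM, with 1 gene tested, Sphk1 (sphingosine kinase), at log2 -1.15. Interferon response genes, led by H2-K1 of antigen presentation, summed to 160 CPM in the control and from 161 to 679 CPM in CKO, above it in 8 of 8 libraries, and to 109 CPM and 138 to 378 CPM in Müller glia. Of 3 genes tested, 0 reached an unadjusted p under 0.05 (median log2 1.29, 1.04 at the bound). Immediate early genes, led by Jun, were at 0 in the control and from 39.0 to 320 CPM in CKO, with only Jun tested, higher at an unadjusted p under 0.05. Its CKO median of 76.6 CPM was under the control's floor. Proliferation genes, with 0 tested, summed to 32.0 CPM in the control and to at most 234 CPM in CKO.

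Groups of vessel biology differed between the glial types through Vegfa, which is in both. Hypoxia genes summed to 1439 CPM in control astrocytes and from 673 to 1388 CPM in CKO astrocytes, above the control in 0 of 8 libraries. In Müller glia they summed to 1560 CPM in the control and from 1761 to 3204 CPM in CKO, above it in 8 of 8. Without Vegfa, a sum added after the values were seen, they were at 544 CPM in control astrocytes and from 606 to 1073 CPM in CKO, above the control in 8 of 8, as in Müller glia (962 CPM and 1036 to 1477 CPM, 8 of 8). The lower sum in astrocytes thus came from Vegfa. Among the 9 hypoxia genes tested in astrocytes, 1 was higher and 1 lower at an unadjusted p under 0.05 (4.39% and 3.18% over all genes). Their median log2 was 1.06 (-0.04 at the bound). The higher one was Ldha, lactate dehydrogenase, with 0 in the control and a CKO median of 149 CPM, and the lower one was Vegfa. Signals to vessels, which also hold Vegfa, summed to 1535 CPM in the control and from 546 to 1279 CPM in CKO astrocytes. In Müller glia they summed to 1177 CPM and from 1205 to 2471 CPM. Without Vegfa the astrocyte sums overlapped, at 640 CPM in the control and from 507 to 1211 CPM in CKO, above it in 4 of 8. In Müller glia they overlapped too, at 578 CPM and from 498 to 795 CPM, above it in 7 of 8. Of 7 tested in astrocytes, 1 was higher and 1 lower, with a median log2 of 5.46, which was -1.26 with 4 genes at their bound. The higher one was Fgf2, a fibroblast growth factor, with 0 in the control and a median of 121 CPM in CKO. Both Ldha and Fgf2 were higher in rods, at 254 and 112 CPM, than in astrocytes, at 131 and 102 CPM. The part of rod RNA in their rise was not tested.

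Developmental and structural groups had 0 genes called. Factors of eye and glial development summed to 7354 CPM in the control and from 4335 to 7066 CPM in CKO, below the control in every library tested, with 1 of 18 genes higher and 2 lower at an unadjusted p under 0.05 (4.39% and 3.18% over all genes) and a median log2 of 0.27 (0.03 at the bound). Genes of uptake and homeostasis summed to 6619 CPM and from 4640 to 6970 CPM, above in 1 of 8, with 0 of 10 higher and 1 lower (median 0.11, -0.10 at the bound). The lower one was the GABA transporter Slc6a11, at 863 CPM in the control and from 202 to 783 CPM in CKO. Gliogenic signals summed to 2910 CPM and from 3321 to 5097 CPM, above in 8 of 8, with 1 of 14 higher (median 0.56, 0.60 at the bound). That was Erbb4, at 128 CPM in the control and from 117 to 1128 CPM in CKO with a median of 768 CPM, above it in 7 of 8. Metabolic genes summed to 1023 CPM and from 585 to 2996 CPM, above in 6 of 8, with 1 of 9 higher (median 1.23, 0.55 at the bound), which was the lipid carrier Apoe at 2 control UMIs (64.0 CPM) and a CKO median of 411 CPM (pooled ratio 8.23, 2.27 to 68.2). Matrix genes summed to 4988 CPM and from 2789 to 5720 CPM, above in 3 of 8, with 2 of 17 higher and 2 lower (median 0.54, -0.35 at the bound). Spon1 (spondin 1) was at 2270 CPM in the control and from 726 to 1258 CPM in CKO, below in 8 of 8, at an adjusted p of 0.615.

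TGF-beta itself was measured at the level of ligand, receptors and targets. Tgfb2, the ligand, was at 671 CPM in control astrocytes and from 455 to 1131 CPM in CKO astrocytes, above the control in 5 of 8. Tgfbr1 had 3 control UMIs (95.9 CPM, interval 19.8 to 280 CPM) and from 0 to 202 CPM in CKO with a median of 82.1 CPM, a pooled ratio of 0.851 (0.280 to 4.22). Tgfbr2 had 1 control UMI (32.0 CPM) and from 0 to 67.3 CPM in CKO, a pooled ratio of 0.979 (0.162 to 40.0). Receptor levels overlapped between genotypes, and the intervals allow both a level of 0.280 of the control's and a rise.

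Astrocyte Tgfbr1, at 87.0 ± 60.3 CPM, was near the Müller glia level of 83.7 ± 8.08 CPM, and the highest type was immune cells at 759 CPM. In Müller glia, where counts were higher, Tgfbr1 was at 97.3 CPM in the control and from 69.9 to 89.7 CPM in CKO, below it in 8 of 8, and did not pass the test (log2 -0.33, adjusted p = 0.848). The target Ccn2 was at 608 CPM in control astrocytes and from 195 to 1039 CPM in CKO. The pathway's genes summed to 2302 CPM in control astrocytes and from 2172 to 3216 CPM in CKO, above it in 6 of 8. Of 14 tested, 1 was higher and 0 lower at an unadjusted p under 0.05 (4.39% and 3.18% over all genes), and 0 were called. The higher one was Itgb8, an integrin chain that frees TGF-beta, at 0 in the control and a median of 126 CPM in CKO. The median log2 of the tested genes was 0.55 (0.03 at the bound).

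RNA of other cell types varied between these libraries, and its part in the differences was not tested. Of 8 rod markers 8 were tested, 1 was higher in CKO at an unadjusted p under 0.05 (4.39% over all genes) and 0 were called. Their sum in astrocytes was 1119 CPM in the control and in CKO replicates 1, 2, 5, 6, 7, 8, 9 and 10 was 2450, 67.3, 3007, 3394, 3275, 2004, 3960 and 5140 CPM, with Sag giving the most UMIs. All but replicate 2 were above the control. Replicate 2, lowest in rod RNA, was the highest in Gfap and Cp. Bipolar markers, with 4 of 6 tested and 1 higher at an unadjusted p under 0.05, summed to 671 CPM in the control and to 1052, 1279, 1239, 2401, 4601, 1286, 1821 and 2136 CPM in the same order, mostly from Prkca. Prkca was also at 1165 and 1027 CPM in sub-clusters 1 and 2, where Trpm1 was at 0.

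Cone markers, led by Opn1mw with 3 of 6 tested, were at 0 CPM in the control and at 213, 0, 186, 578, 0, 74.5, 231 and 358 CPM in CKO. Amacrine markers, led by Gad1 with 0 of 6 tested, were at 0 and at 20.0, 67.3, 18.6, 0, 156, 112, 87.3 and 98.3 CPM. Ganglion cell markers, led by Rbpms with 2 of 8 tested, were at 32.0 and at 146, 336, 81.9, 181, 0, 177, 99.8 and 143 CPM, with Pou4f2 and Slc17a6 at 0. These neuronal sums were above the control in most CKO libraries. Horizontal cell markers reached at most 8.94 CPM, led by Onecut2 with Lhx1 at 0. Pigment epithelium markers reached at most 18.7 CPM, led by Best1 with Tyr at 0, and neither list had a gene tested.

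Vascular and immune markers were low. Endothelial markers, of which 2 of 8 were tested, summed to 64.0 CPM in the control and to 206, 135, 205, 90.3, 234, 74.5, 99.8 and 223 CPM in CKO. Kdr gave the most UMIs, and Cdh5, Cldn5 and Tie1 were at 0. Müller glia held 1289 CPM of this list in the control, chiefly of Flt1 at 924 CPM. Of the microglial markers, 0 of 7 were tested, and Csf1r, Ptprc and Tmem119 were at 0 CPM in all these libraries.

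Pericyte and fibroblast markers had 0 genes called, and the 1 gene tested in each, Rgs5 and Col1a2, was higher at an unadjusted p under 0.05 (adjusted p = 0.615 for both). Col1a2 passed within the control's batch (adjusted p = 0.0204, alternatives from 0.0204 to 0.914). Pericyte markers, with 1 of 6 tested, summed to 95.9 CPM in the control and to 553, 808, 741, 451, 312, 540, 443 and 358 CPM in CKO. Rgs5 gave the most UMIs, with 3 from 1 nucleus in the control and from 39.0 to 808 CPM in CKO (pooled ratio 5.26, 1.79 to 25.6), and Kcnj8 was at 0. After thinning, 41.1% of CKO astrocytes had an Rgs5 UMI (63.2% before) against 0.336% of ganglion cells (1.3% before). Fibroblast markers, with 1 of 4 tested, were at 0 CPM in the control and at 366, 808, 677, 271, 117, 177, 99.8 and 17.9 CPM in CKO, mostly from Col1a2, with Dcn and Lum at 0. The lowest of these sums is under the control's floor of 95.9 CPM. Of the oligodendrocyte markers, 0 of 7 were tested, and Mag, Mobp and Mog were at 0 CPM. For oligodendrocyte precursors Olig1, Olig2 and Sox10 were at 0, but Olig1 and Olig2 had no UMI in any labelled type of these libraries, so their absence here is uninformative, and Cspg4 alone gave at most 39.0 CPM, with 0 of 4 genes tested.

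The Müller glia markers summed to 2558 CPM in control astrocytes and to 3475, 3500, 3997, 2347, 2457, 2861, 2769 and 2235 CPM in CKO astrocytes, led by Glul. The control lay inside the CKO range. Of 14 tested, 3 were higher and 1 lower at an unadjusted p under 0.05 (4.39% and 3.18% over all genes). The median log2 was 2.13 (0.27 with 4 genes at their bound). Vim and Apoe, also reactive and metabolic genes, were among the 3 higher ones. Müller glia themselves held 5668 CPM of these markers in the control and from 4202 to 5576 CPM in CKO. Other astrocyte markers, led by Pdgfra, summed to 1631 CPM in the control and from 858 to 2768 CPM in CKO, with 1 of 7 tested higher (median log2 1.22, 0.72 at the bound), and the 4 given markers to 3933 CPM and from 2885 to 7201 CPM.

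The last comparison tested whether the CKO effect differed between astrocytes and Müller glia, as the interaction of cell type and genotype in the same libraries. Of 5847 genes 6 passed in edgeR (0.103%), all with a lower CKO effect in astrocytes: Fn1, Pdlim3, Ctnna3, Vegfa, Gm36264 and Gm29183. At an unadjusted p under 0.05 there were 394, of which 266 had a higher CKO effect in astrocytes and 128 a lower one. DESeq2 called 7 genes, 5 of them among these 6. In neither cell type alone did any of the 6 pass, and in Müller glia 2 of 12099 genes passed the CKO test in all (0.0165%).

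Fn1 encodes the matrix protein fibronectin, on which retinal astrocytes and vessels grow. In astrocytes it was at 1023 CPM in the control and from 234 to 1144 CPM in CKO, with a median of 373 CPM. In Müller glia it was at 38.4 CPM in the control and from 93.8 to 339 CPM in CKO, with a median of 218 CPM. Astrocyte Fn1 was below the control in 7 of 8 CKO libraries, replicate 2 being the exception, and Müller glia Fn1 was above it in 8 of 8. The log2 difference of the CKO effects was -3.70 ± 0.58 (SE, adjusted p = 0.00389).

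Vegfa was at 895 CPM in control astrocytes (28 UMIs in 10 of 12 nuclei) and from 39.0 to 335 CPM in CKO astrocytes, with a median of 239 CPM. In Müller glia it was at 599 CPM in the control and from 708 to 1767 CPM in CKO, with a median of 1120 CPM. No CKO library overlapped the control in either type, with all 8 below it in astrocytes and all 8 above it in Müller glia. How often a lone control lies outside the CKO libraries over all genes was not counted. The log2 difference was -2.78 ± 0.57 (adjusted p = 0.0449, alternatives from 0.00249 to 1.00). The pooled astrocyte ratio was 0.311 (0.210 to 0.478).

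Shares of nuclei, counted from the same UMIs and with intervals over single nuclei, went in the same directions for Vegfa. After thinning, 58.3% of control astrocytes (27.7% to 84.8%; 83.3% before) and 14.4% of CKO astrocytes (9.66% to 20.4%; 40.9% before) had a UMI. In Müller glia these shares were 43.9% (75.9% before) and 68.4% (84.0% before), at median depths of 3171.5 and 3394 UMIs with 33 and 423 nuclei left out. In ganglion cells the share was 4.03% (28.6% before, median 8539.5 UMIs, 203 left out) and in rods 0.216% (0.575% before, median 1064 UMIs, 19268 left out).

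Pdlim3, an actin-associated protein of the PDZ and LIM family, was at 863 CPM in control astrocytes and from 158 to 304 CPM in CKO astrocytes, with a median of 201 CPM. In Müller glia it was at 239 CPM and from 279 to 700 CPM, with a median of 516 CPM. It too was below the control in 8 of 8 libraries in astrocytes and above it in 8 of 8 in Müller glia, with a log2 difference of -3.02 ± 0.54 (adjusted p = 0.0169). Ctnna3, an alpha catenin of cell junctions, was at 703 CPM and from 0 to 390 CPM in astrocytes, and at 124 CPM and from 217 to 395 CPM in Müller glia (log2 -3.86 ± 0.75, adjusted p = 0.0361). The noncoding transcript Gm29183 was at 480 CPM and from 117 to 336 CPM in astrocytes, and at 31.8 CPM and from 71.0 to 149 CPM in Müller glia (log2 -3.03 ± 0.63, adjusted p = 0.0476). Both were below the control in 8 of 8 libraries in astrocytes and above it in 8 of 8 in Müller glia. Gm36264 had all 12 of its control UMIs (384 CPM) in 1 astrocyte nucleus and from 0 to 181 CPM in CKO, and 5.29 CPM and from 7.38 to 102 CPM in Müller glia (log2 -4.99 ± 1.02, adjusted p = 0.0449).

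**Figure D4:**
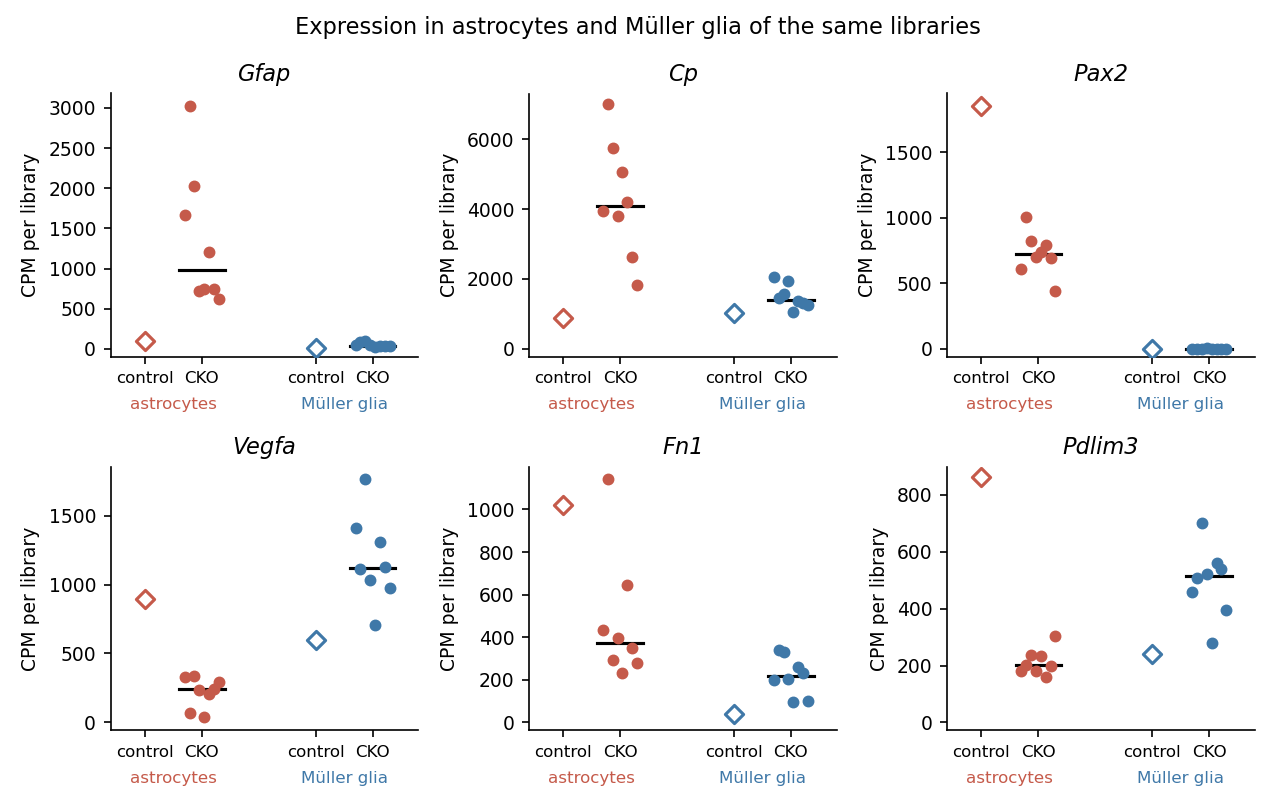
CPM per library of 6 genes in astrocytes (red) and Müller glia (blue) of the control (open diamond) and of 8 CKO libraries (filled circles, black line at their median). Gfap and Cp are higher in all 8 CKO libraries in both types, whereas Vegfa and Pdlim3 are lower in all 8 in astrocytes and higher in all 8 in Müller glia.

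Fn1 and Pdlim3 passed whichever CKO library was left out, though these fits were not planned for the interaction. Vegfa and Gm29183 no longer passed without CKO replicate 1, 5, 6, 7 or 9 (adjusted p from 0.0590 to 0.0912 for Vegfa and from 0.0727 to 0.0945 for Gm29183). The highest adjusted p over all alternatives was 1.00 for each of the 6 genes. With the filter of 10 UMIs Vegfa and Gm29183 did not pass either (0.0602 for both). Ctnna3 did not pass in DESeq2 (0.0728), nor without replicate 5 or 6 (0.0762 and 0.0565), and Gm36264 did not without replicate 6 or 7 (0.0581 and 0.0945). The count was 17 without replicate 2, 2 without replicate 6, and 3 without replicate 5 or replicate 7. Within the control's batch, with 2 CKO libraries, 1 gene passed and it was none of the 6, while their log2 differences kept their sign, as with -3.42 for Fn1 and -3.22 for Vegfa. Without sub-clusters 3 and 4, 10 genes passed, among them all 6, and in the libraries of high Xist 2 passed, none of them from the 6.

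On the higher side of the interaction 0 genes passed. In alternatives, 6 higher genes passed without CKO replicate 2 (among them Camk1d, Gngt1 and Samd11), 4 with the filter of 10 UMIs and 1 without sub-clusters 3 and 4. The 5 of smallest p were Camk1d, Kirrel, Gngt1, Samd11 and Pdzd2, at adjusted p-values of 0.125, 0.258, 0.212, 0.279 and 0.279, and all 5 had no UMI in control astrocytes. Gngt1, the gamma subunit of rod transducin, was at 0 to 486 CPM in CKO astrocytes and Samd11, a photoreceptor gene, at 0 to 581 CPM. Both are highest in rods, at 1019 and 2786 CPM. Pdzd2, a PDZ protein, was at 67.3 to 349 CPM and is highest in cones, at 1571 CPM.

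Brain libraries of the same study, made from a fraction enriched for endothelial cells, held 942 nuclei labelled astrocytes in the control and 644 in the CKO, with 1 library each and so no test. Their median nuclei had 1150.5 and 578.5 UMIs. Brain astrocytes had 366 CPM of Aqp4 in the control and 704 CPM in the CKO, and 10827 and 10631 CPM of the glutamate transporter Slc1a2, against 182 ± 82.3 CPM of Slc1a2 in retinal astrocytes. Pax2 had 0 UMIs in either, which allows up to 2.71 and 7.30 CPM (exact Poisson). The gap junction gene Gja1 was at 465 and 500 CPM, and at 61.0 ± 49.1 CPM in the retina. Labelled astrocytes of the brain and retina thus differed in the markers that the brain cells carry and in Pax2.

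In the brain Gfap was at 235 CPM in the control and 588 CPM in the CKO, a ratio of 2.50 (2.13 to 2.94), and Cp at 22.8 and 83.1 CPM, a ratio of 3.65 (2.24 to 6.01). Both were higher in CKO, as in the retina. Stat3, which relays cytokine signals to reactive genes, was at 45.5 and 123 CPM (ratio 2.70, 1.86 to 3.90), and in retinal astrocytes at 95.9 CPM in the control, which is 3 UMIs, and from 202 to 342 CPM in 8 CKO libraries (adjusted p = 0.615). Vegfa was at 399 and 358 CPM (ratio 0.897, 0.754 to 1.06), and Pdlim3 at 22.8 and 17.8 CPM (ratio 0.782, 0.328 to 1.68). The intervals of these ratios cover counting error only.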

How the data were processed

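The deposited retina and brain files hold UMI counts per gene and nucleus, made by the authors with PIPseeker, CellBender for background removal and SOLO for doublets, followed by manual curation, which also removed clusters with several nuclei of CKO replicates 4 and 5; the submitters' processing notes name mm10 and Seurat, whereas the study's methods name GRCm39. Cell type labels are the authors'. UMIs were summed per library and cell type and scaled to CPM. CKO libraries with at least 10 astrocyte nuclei and the control were tested with edgeR 4.0.16 in R 4.3.3. The test was quasi-likelihood with TMM factors, filterByExpr and kit version as a covariate. The interaction had library as a block instead. P-values were adjusted by Benjamini-Hochberg, with a threshold of 0.05. DESeq2 1.42.0 was run beside edgeR. The edgeR tests of astrocytes and of the interaction were also run on simulated data, and DESeq2 was not. Shares used exact permutation tests over libraries. Sub-clusters used scanpy 1.11.5 and leidenalg 0.10.2 (2000 variable genes, 20 components, 15 neighbours, resolution 0.5). Medians of lists use edgeR's shrunken log2 fold changes and single genes the unshrunken ones. Intervals are 95%, exact binomial (Clopper-Pearson), exact Poisson or exact conditional. The members, gene lists and rules were chosen with earlier results of these data known. Named genes were the given markers, Tgfbr1 and Tgfbr2, leading and called members of each list, the genes of smallest p (5 a direction where fewer pass), the highest and lowest ratios to Müller glia, genes leading the labelled types and leading sub-cluster genes; genes outside this rule, such as Cst3, Kalrn, Stat3, Serpina3n and C3, were named after their values were seen. CKO replicates 3, 4 and 11 were left out of the expression tests for their few astrocytes. Alternatives changed normalization, filter, covariate, libraries, nuclei, thresholds and tool.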

Additional observations from a re-analysis of the deposited data

Results flagged for a closer look

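Of 71 groups of 8 CKO libraries examined, 10 had 1 library far from the others. Chance gives about 1 in 20 only for independent groups of normally distributed values. These groups overlap, as Prkca with the bipolar markers, and some hold values of 0. The 10 can therefore not be weighed against that rate. In astrocytes CKO replicate 9 stood apart in Hs3st4 (212 CPM, others 0 to 89.4), Il1rapl2 (368 CPM, others 0 to 62.6) and the pigment epithelium markers (18.7 CPM, others 0 to 3.72). CKO replicate 2, the library with the fewest astrocyte UMIs, did so in Fn1 (1144 CPM, others 234 to 643), the oligodendrocyte markers (135 CPM, others 17.9 to 40.9) and the A2 reactive group (404 CPM, others 35.8 to 194). CKO replicate 7 did so in the bipolar markers (4601 CPM, others 1052 to 2401) and their member Prkca (3470 CPM, others 939 to 1841), and CKO replicate 1 in Aqp4 (26.6 CPM, others 0 to 11.2). In Müller glia CKO replicate 5 stood apart in Slc1a3 (1625 CPM, others 1166 to 1375). Replicate 2 held 14859 astrocyte UMIs in all, so its oligodendrocyte value rests on a few molecules. The values of the pigment epithelium markers in replicate 9 and of Aqp4 in replicate 1 also rest on a few UMIs. The causes were not tested.

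The interaction test of cell type and genotype passed for 6 genes, with 1 control library of 12 astrocytes. Within the control's batch and in libraries of high Xist 0 of the 6 passed, and all control UMIs of Gm36264 in astrocytes came from 1 nucleus. Over the 9 libraries the log2 differences, astrocytes minus Müller glia, were -3.70 for Fn1, -2.78 for Vegfa, -3.02 for Pdlim3, -3.86 for Ctnna3, -4.99 for Gm36264 and -3.03 for Gm29183. In the libraries of high Xist, 3 of them CKO, they were -3.43 for Fn1, -3.37 for Vegfa and -2.91 for Pdlim3.

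CKO replicates 3 and 11, with 6 and 8 astrocyte nuclei, were not part of the expression tests, and their values for the 5 higher genes of smallest p were all above the control's. Gfap was at 389 and 1217 CPM, Cp at 2453 and 2696 CPM, Camk1d at 389 and 539 CPM, Anks1b at 179 and 216 CPM and Kirrel at 150 and 200 CPM. The 5 lower genes of smallest p were all below the control's in both, at 29.9 and 139 CPM for Hs3st4, 179 and 0 for Il1rapl2, 329 and 339 for Frmd4a, 209 and 30.8 for Pcsk6 and 449 and 555 for Opcml, but with all libraries of any astrocyte the log2 fold change was smaller for Il1rapl2 (-5.37 in place of -8.29) and Pcsk6 (-3.47 in place of -4.52).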

How the results depend on the processing

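The astrocyte share and the share among both glia kept their direction under all 13 alternatives, where with 1 control library no p can be under 0.0833. The count of genes changed in astrocytes, 0 as reported, was 1 with DESeq2, 8 with no filter beyond 1 UMI, 7 within the control's batch, 7 with CKO libraries of at least 20 astrocyte nuclei, 5 without sub-clusters 3 and 4, and 0 to 2 when each CKO library was left out. The count in the interaction, 6 as reported, was 12 with a filter of 10 UMIs (4 of them higher in astrocytes), 1 within the control's batch, 10 (1 of them higher) without sub-clusters 3 and 4, 2 in libraries of high Xist, and 2 to 17 when each CKO library was left out (17, 6 of them higher, without replicate 2). Leaving out each CKO library was planned for the astrocyte test but not for the interaction. Against Müller glia, 1082 genes were higher and 682 lower at a ratio of 2, and 137 were higher in kit version 5. For single genes, 519 values under alternatives kept direction and side of the threshold, 25 passed only there, 28 no longer passed, and 2 turned: without the control nucleus of most UMIs, an alternative chosen after seeing the data like those on sub-clusters and Xist, Hs3st4 was at log2 3.23 and Il1rapl2 at 1.42. Apart from that nucleus and the numbers of genes tested, the causes were not tested. No paired analysis was possible because no CKO library has a control library of its own, and only cell types were compared within libraries. The 12 control nuclei limit every contrast of genotypes: a gene with no UMI there is set to a floor of 95.9 CPM, and kit version 5 and batches 2 and 3 hold no control.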
